A study of Mus musculus with 15 samples.

Results

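Accessible chromatin was examined at the genes of 7 transcription factors of the epithelial-mesenchymal transition (EMT), Zeb1, Zeb2, Snai1, Snai2, Twist1, Twist2 and Prrx1. The genes were chosen as the families best known for driving this transition, and each was represented by every merged ATAC-seq peak that overlapped its gene record in the mouse assembly mm10 or lay within 50 kb of it. This gave 51 peaks of 67945, with 11 at Zeb1, 8 at Zeb2, 11 at Snai1, 3 at Snai2, 2 at Twist1, 10 at Twist2 and 6 at Prrx1. Of these, 25 lay in a member's gene record and 26 outside it, and 2 of the outer ones, both upstream of Snai1, lay at the neighbouring genes Spata2 and Rnf114. Each library held tumour cells of 1 pancreatic tumour clone, 50000 of them sorted from an untreated tumour that had grown for 3 weeks under the skin of a C57BL/6 mouse. The T cell high group, whose tumours are labelled as rich in T cells, comprised 7160c2, 6620c1, 6555c3, 6499c4, 6421c2 and 2838c3, and the T cell low group comprised 6694c2, 6556c3, 6499c3, 6422c1, 2699c4 and the pair 6419c1 and 6419c5. Both groups were alike in host strain, implantation site and time, and the labels give no genotype for the tumours. A clone's name begins with a number read here as its parental tumour, so that the 13 clones stood for 11 parental tumours. Tumour 6499 gave a clone to each group, and tumour 6419 gave 2 T cell low clones. The 2 T cell intermediate clones in the labels were not analysed here.

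In an epithelial-mesenchymal transition, epithelial cells give up their junctions and polarity and take on mesenchymal features, among them the ability to migrate. ZEB and SNAIL family proteins are zinc-finger repressors that bind E-box motifs in the promoters of epithelial genes, the E-cadherin gene Cdh1 being the best known. TWIST proteins are basic helix-loop-helix factors of mesoderm development, and PRRX1 is a homeodomain protein of the limb and craniofacial mesenchyme. The ZEB factors and the miR-200 family repress each other, since the microRNAs target the Zeb1 and Zeb2 messengers and ZEB proteins bind the miR-200 promoters. In mouse pancreatic tumours these factors have been studied as drivers of dissemination.

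The windows of 250 bases upstream of the start are shown for the 3 members whose starts are compared most closely below, Twist1 for its spread between clones, Snai1 for its E-box and Zeb2 for the start that its peak covers. They are RefSeq sequences of GRCm38.p6, the assembly that mm10 represents, read from 5′ to 3′ on the gene's strand, with E-boxes (CANNTG, searched on both strands) in capitals. The first is chr12:33957421-33957670 on the plus strand, the second chr2:167537945-167538194 on the plus strand and the third chr2:45110278-45110527 on the minus strand.
Twist1: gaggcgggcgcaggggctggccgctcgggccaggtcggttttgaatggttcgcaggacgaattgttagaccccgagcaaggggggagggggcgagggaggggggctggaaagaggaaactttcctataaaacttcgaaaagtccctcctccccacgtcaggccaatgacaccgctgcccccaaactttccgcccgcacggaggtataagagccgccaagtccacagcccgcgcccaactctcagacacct
Snai1: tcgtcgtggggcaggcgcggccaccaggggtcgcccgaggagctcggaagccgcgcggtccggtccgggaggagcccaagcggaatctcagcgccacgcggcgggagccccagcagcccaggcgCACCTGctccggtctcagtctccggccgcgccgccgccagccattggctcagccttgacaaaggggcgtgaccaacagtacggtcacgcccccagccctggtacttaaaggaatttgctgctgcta
Zeb2: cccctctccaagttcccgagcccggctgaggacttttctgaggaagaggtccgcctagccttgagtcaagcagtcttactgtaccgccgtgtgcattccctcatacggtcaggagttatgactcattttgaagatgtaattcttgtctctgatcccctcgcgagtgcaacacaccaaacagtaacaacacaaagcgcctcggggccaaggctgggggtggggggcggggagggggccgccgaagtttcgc
RefSeq windows were matched for 5 of the 7 members, 8 windows in all, and 4 of these overlapped a linked peak, at Zeb2, Snai1, Twist1 and Twist2. Only the Snai1 window among the 8 held an E-box, a CACCTG whose first base lay 126 bases upstream of the start. Of all 32851 windows, 66.2% held CANNTG and 17.2% held CACCTG or its reverse complement CAGGTG, which are a subset of CANNTG. Among the 13601 windows that overlapped a merged peak the shares were 56.3% and 15.7%. A match is a string of letters and not a site of binding.

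The mature microRNAs of the miR-200 family are shown because the peaks near their hairpins are set beside the Zeb1 and Zeb2 loci further on. The seed, bases 2 to 8, is in capitals. 3 of them share the seed AAUACUG.
miR-200b: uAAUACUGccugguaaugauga
miR-200c: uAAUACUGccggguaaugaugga
miR-429: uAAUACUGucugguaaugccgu
The other 2 share AACACUG.
miR-200a: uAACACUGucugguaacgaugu
miR-141: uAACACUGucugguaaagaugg
In the assembly, miR-200b, miR-200a and miR-429 lie together on chromosome 4, and miR-200c and miR-141 on chromosome 6.

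Reads in peaks numbered 968296 to 5936823 per T cell high library and 1030616 to 7369228 per T cell low library. Levels are given in CPM, counts scaled to a common library size, and differences as the log2 fold change of T cell high over T cell low with its standard error (SE). The fit was edgeR's quasi-likelihood test over the whole table, two-sided, with Benjamini-Hochberg adjustment. All 7 pancreatic epithelial marker genes checked had a peak at the start, and their summed level was 147.9 to 286.5 CPM in T cell high and 140.0 to 239.0 CPM in T cell low clones, the lowest single value being 6.6 CPM at Krt18. Clone 2838c3 stood apart from the other T cell high clones at Twist1 and Zeb2, so those values are also given without it, as are those of Cldn3 and Epcam further on. Each value averages over many cells, so fewer cells with an open site cannot be told apart from a less open site in each cell.

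None of the 7 loci passed the test between the groups. Of the 44 linked peaks that passed the filter on low counts, 0 had an adjusted p under 0.05, where 0.0% of all 59252 tested peaks did, and the members' adjusted p ran from 0.516 to 0.994. DESeq2 and limma-voom also called 0 of the linked peaks, while DESeq2 called 46 peaks (0.0677%) over the whole table. An unadjusted p under 0.05 was reached by 2 of the 44, both lower in T cell high clones, beside 2.96% of all tested peaks in that direction, 3.86% in the other and 6.83% in either. The fold change was below 0 at 27 of the 44 and above 0 at 17, against 48.7% below 0 over all tested peaks. The median was -0.19 over the linked peaks and 0.01 over all tested peaks. For the sums of all peaks at a locus, 0 of 7 had an adjusted p under 0.05 and 0 of 7 an unadjusted p under 0.05, where 0.00554% and 7.13% of 18038 loci did (3.04% higher and 4.09% lower in T cell high). The sums were below 0 at 4 of the 7 and above 0 at 3, against 55.0% below 0 over all loci. The 7 peaks left untested were 2 at Zeb1, 1 at Zeb2, 3 at Snai1 and 1 at Prrx1, and each had 0 to 10.3 CPM in every clone.

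**Figure D1:**
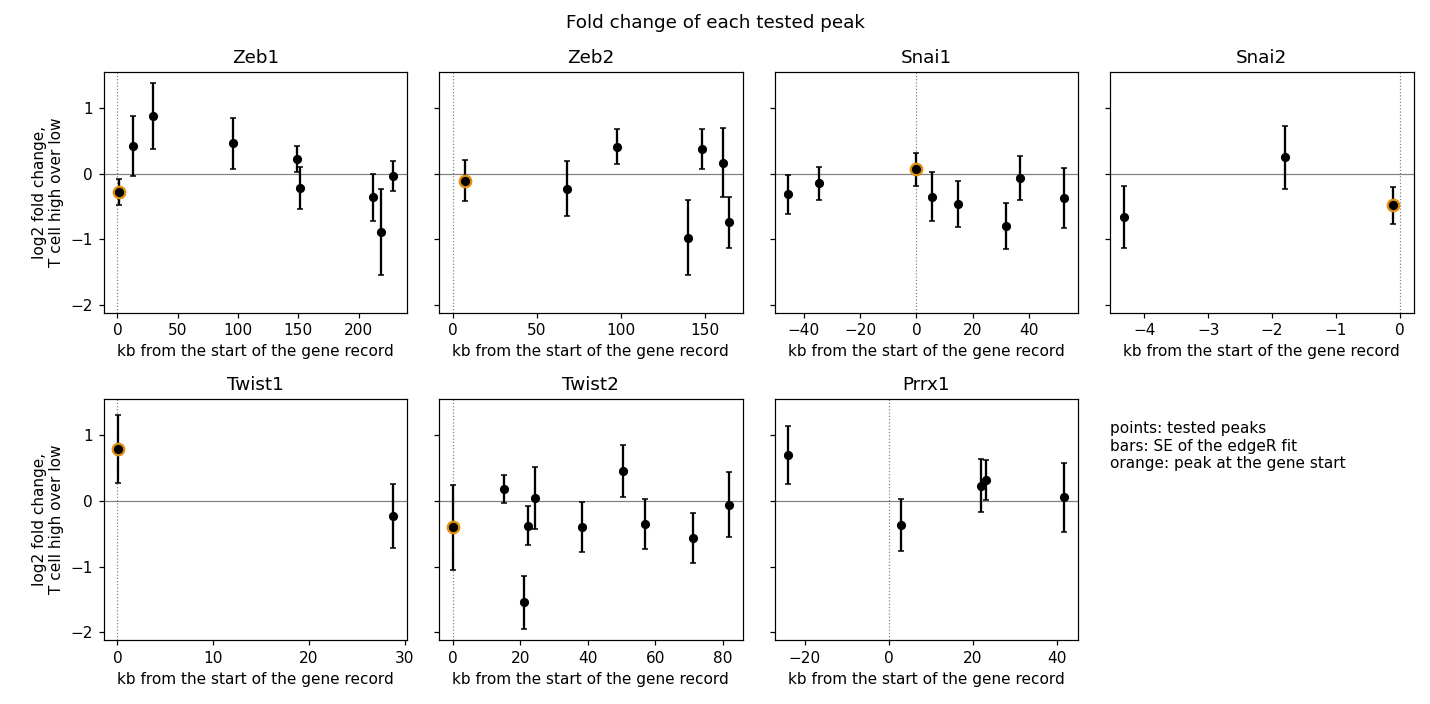
Log2 fold change (T cell high over T cell low) of each of the 44 tested peaks against the distance in kb of its centre from the start of the gene record, 1 panel per gene, with points for peaks, bars for the SE of the edgeR fit and an orange ring for the peak at the gene start. Points lie on both sides of 0, and the one farthest below 0 is the Twist2 peak at -1.54.

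The summed accessibility of the ZEB loci differed between the groups by less than the spread between clones. Zeb1, which encodes a repressor of Cdh1, spans chr18:5591327-5775468. Its 11 peaks summed to 138.0, 158.0 and 208.6 CPM (lowest, median, highest) in T cell high clones and to 143.7, 170.0 and 199.7 CPM in T cell low clones. The groups overlapped over nearly their whole range, and the means were 169.1 ± 28.5 CPM for T cell high clones (SD, n = 6) and 172.1 ± 23.0 CPM for T cell low clones (SD, n = 7). This corresponded to a log2 fold change of -0.02 (SE 0.14, edgeR adjusted p = 0.981), and its sign turned to 0.02 with the gene record alone or a window of 10 kb. Across the 13 clones the highest sum was only 1.51 times the lowest, and the SD of log2 CPM stood at percentile 6.72 of all tested loci.

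Within Zeb1 the peak at the start of the record took 28.7% of the locus reads. It had 32.9, 42.7 and 56.1 CPM in T cell high clones and 39.6, 51.1 and 70.1 CPM in T cell low clones, which gave a log2 fold change of -0.28 (SE 0.19, edgeR adjusted p = 0.823). A non-coding record, Gm10125, also lies within 1 kb of that peak. The Zeb1 peak with the smallest p lay inside the gene record, at chr18:5620839-5621295, with 3.10, 5.94 and 12.1 CPM in T cell high and 0.857, 3.13 and 8.80 CPM in T cell low clones. Its log2 fold change was 0.88 (SE 0.51, edgeR adjusted p = 0.782), and the groups overlapped. Over the 9 tested peaks of Zeb1, 4 lay above 0 and 5 below.

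Zeb2 encodes the second ZEB repressor and lies on the minus strand at chr2:44983512-45117442. Its 8 peaks summed to 77.6, 93.4 and 167.8 CPM in T cell high clones and to 81.2, 103.2 and 123.0 CPM in T cell low clones. The highest value was that of 2838c3, and the rest of that group lay at or below 107.5 CPM, inside the T cell low range or just under it. The log2 fold change was 0.04 (SE 0.19, edgeR adjusted p = 0.975), or -0.17 (edgeR adjusted p = 0.739) without 2838c3. Tested peaks 50 kb to 5 Mb from Zeb2 had a median 0.52 log2 units above the 13-clone mean in 2838c3. With offsets for such regional deviations the fold change of the locus was -0.10.

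Zeb2 has several listed starts, and of their windows only the one printed above overlapped a linked peak. The outermost window, chr2:45117443-45117692, was among those that overlapped none. Zeb2 accessibility at a start was thus measured by the peak at chr2:45109179-45110742, which covers the window printed above and also borders the antisense record Zeb2os. The level there was 11.97, 25 and 45.5 CPM in T cell high clones and 8.04, 28.4 and 38.4 CPM in T cell low clones, with a log2 fold change of -0.11 (SE 0.31, edgeR adjusted p = 0.969), or -0.36 (edgeR adjusted p = 0.721) without 2838c3. Both ends of the range were set by single clones, 2838c3 at the top and 6499c3 at the bottom. Regional deviations near Zeb2 were 0.52 log2 units in 2838c3 and -0.39 in 6499c3. The smallest p at Zeb2 belonged to a peak 30171 bp beyond the gene's far end, chr2:44952749-44953341, with 3.71, 5.76 and 9.89 CPM in T cell high and 4.87, 8.40 and 16.7 CPM in T cell low clones. There the log2 fold change was -0.74 (SE 0.39, edgeR adjusted p = 0.754).

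**Figure D2:**
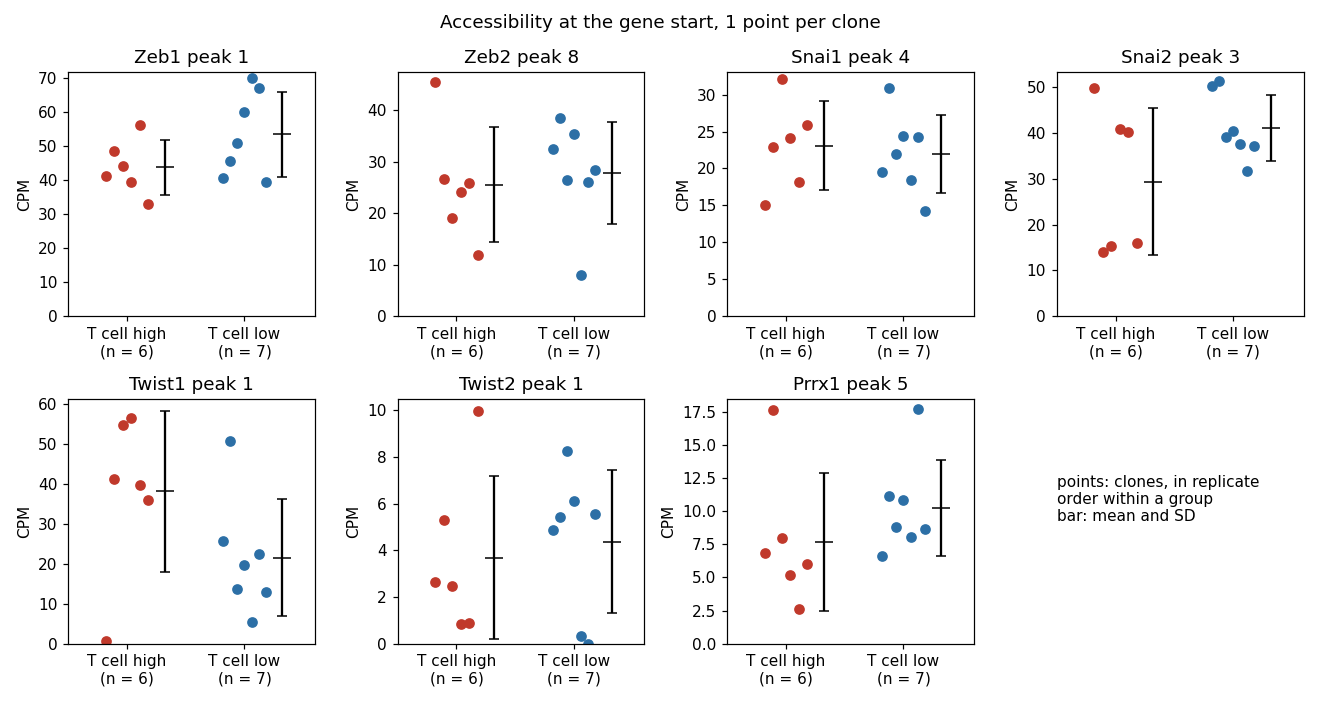
CPM at the start peak of each gene (for Prrx1, the peak nearest to its listed start), 1 point per clone, with T cell high (red, n = 6) left of T cell low (blue, n = 7) and the mean and SD beside the points. The groups overlap in every panel, and at Twist1 5 of 6 T cell high clones lie between 35.9 and 56.3 CPM while 2838c3 lies at 0.529 CPM.

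The loci of the SNAIL genes had fold changes below 0 that did not pass the test. Snai1 encodes the SNAIL repressor and lies on the plus strand at chr2:167538195-167542814. The 11 peaks around it summed to 95.9, 131.8 and 144.7 CPM in T cell high clones and to 122.1, 150.2 and 166.2 CPM in T cell low clones. The means were 125.1 ± 19.3 CPM for T cell high clones (SD, n = 6) and 147.1 ± 16.8 CPM for T cell low clones (SD, n = 7), and the ranges overlapped. The log2 fold change was -0.23 (SE 0.14, edgeR adjusted p = 0.750), and 7 of its 8 tested peaks were below 0. The gene is short, and counts in the record alone gave 0.06, since the one peak there is the start peak.

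That start peak, chr2:167537594-167538496, holds the CACCTG printed above. It measured 15.1, 23.5 and 32.2 CPM in T cell high clones and 14.2, 22.0 and 30.8 CPM in T cell low clones, ranges that overlapped almost wholly (log2 fold change 0.06, SE 0.25, edgeR adjusted p = 0.978). The Snai1 peak with the smallest p lay 26746 bp beyond the gene at chr2:167569560-167570600, next to the non-coding records Gm11476 and Gm31619. This peak had 2.99, 6.87 and 14.3 CPM in T cell high and 9.40, 13.1 and 19.7 CPM in T cell low clones. There 5 of the 6 T cell high clones lay under every T cell low clone, and 6421c2, at 14.3 CPM, lay among the T cell low clones. Its log2 fold change was -0.79 (SE 0.35), with an unadjusted p of 0.0343 and an edgeR adjusted p of 0.711.

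Snai2 encodes SLUG, a close relative of SNAIL, and spans chr16:14705852-14709395. Its 3 peaks summed to 17.1, 42.6 and 60.6 CPM in T cell high clones and to 42.7, 50.6 and 64.7 CPM in T cell low clones. The T cell high clones fell into a lower set, 6421c2, 6499c4 and 7160c2 at 17.1, 18.6 and 31.9 CPM, and a set of 3 at 53.3 to 60.6 CPM. The T cell low clones held together within 42.7 to 64.7 CPM. The log2 fold change was -0.40 (SE 0.28, edgeR adjusted p = 0.768). Regional deviations near Snai2 were -0.26 log2 units in each of 6421c2 and 6499c4 and 0.12 in 7160c2. In the other T cell high clones they were -0.21 in 6555c3, -0.05 in 6620c1 and 0.20 in 2838c3. Among T cell low clones they were above 0 in 2699c4 (0.52), 6419c5 (0.42), 6419c1 (0.24) and 6556c3 (0.15). They were below 0 in 6422c1 (-0.18), 6694c2 (-0.04) and 6499c3 (-0.01). With offsets for the deviations of all clones the fold change of the locus was -0.19.

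At Snai2 the start peak, chr16:14705153-14706339, took 76.6% of the reads and repeated this division. Among T cell high clones it had 13.97 CPM in 6421c2, 15.4 in 6499c4, 15.96 in 7160c2, 40.2 in 6620c1, 40.9 in 6555c3 and 49.8 in 2838c3, against 31.7, 39.0 and 51.4 CPM (lowest, median, highest) in the T cell low clones. On the log2 scale the fold change was -0.48 (SE 0.28, edgeR adjusted p = 0.787). This was also the Snai2 peak with the smallest p.

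Twist1 showed the widest spread between clones of any member. The gene encodes a basic helix-loop-helix factor and lies on the plus strand at chr12:33957671-33959831, with its start inside a peak at chr12:33956686-33958716. In T cell high clones that peak measured 0.529 CPM in 2838c3, 41.3 in 6421c2, 54.7 in 6499c4, 56.3 in 6555c3, 39.7 in 6620c1 and 35.9 in 7160c2. In T cell low clones it measured 25.8 CPM in 2699c4, 50.7 in 6419c1, 13.8 in 6419c5, 19.7 in 6422c1, 5.36 in 6499c3, 22.4 in 6556c3 and 12.98 in 6694c2. Of the 6 T cell high clones 5 were thus above 6 of the 7 T cell low clones, 6419c1 being high among the T cell low and 2838c3 the lowest of all. The log2 fold change was 0.79 (SE 0.52, edgeR adjusted p = 0.813), and 1.05 (edgeR adjusted p = 0.259) without 2838c3 or 1.19 (edgeR adjusted p = 0.896) without 6419c1. With limma-voom it was -0.02.

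The 2 reads of 2838c3 in the Twist1 start peak allow a level of 0.0641 to 1.91 CPM (exact 95% Poisson interval, which covers counting error only). The nearest T cell high clone, 7160c2, had 36 reads and an interval of 25.1 to 49.7 CPM, and the ratio of 2838c3 to it was 0.0147 (95% interval 0.00172 to 0.0573). The gap was larger than counting error. Tested peaks 50 kb to 5 Mb from Twist1 had a median -0.10 log2 units from the 13-clone mean in 2838c3. The SD of log2 CPM at this peak stood at percentile 99.6 of all start peaks.

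The second Twist1 peak, 28420 bp from the start at chr12:33986091-33986920, was weaker. It had 2.65, 4.95 and 7.98 CPM in T cell high clones and 1.36, 6.57 and 11.1 CPM in T cell low clones, with a log2 fold change of -0.23 (SE 0.48, edgeR adjusted p = 0.957). Both peaks together averaged 43.1 ± 21.4 CPM across T cell high clones (SD, n = 6) and 27.1 ± 15.7 CPM across T cell low clones (SD, n = 7), with a log2 fold change of 0.64 (SE 0.43, edgeR adjusted p = 0.766), or 0.89 (edgeR adjusted p = 0.253) without 2838c3. The highest of the 13 sums was 19.5 times the lowest.

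**Figure D3:**
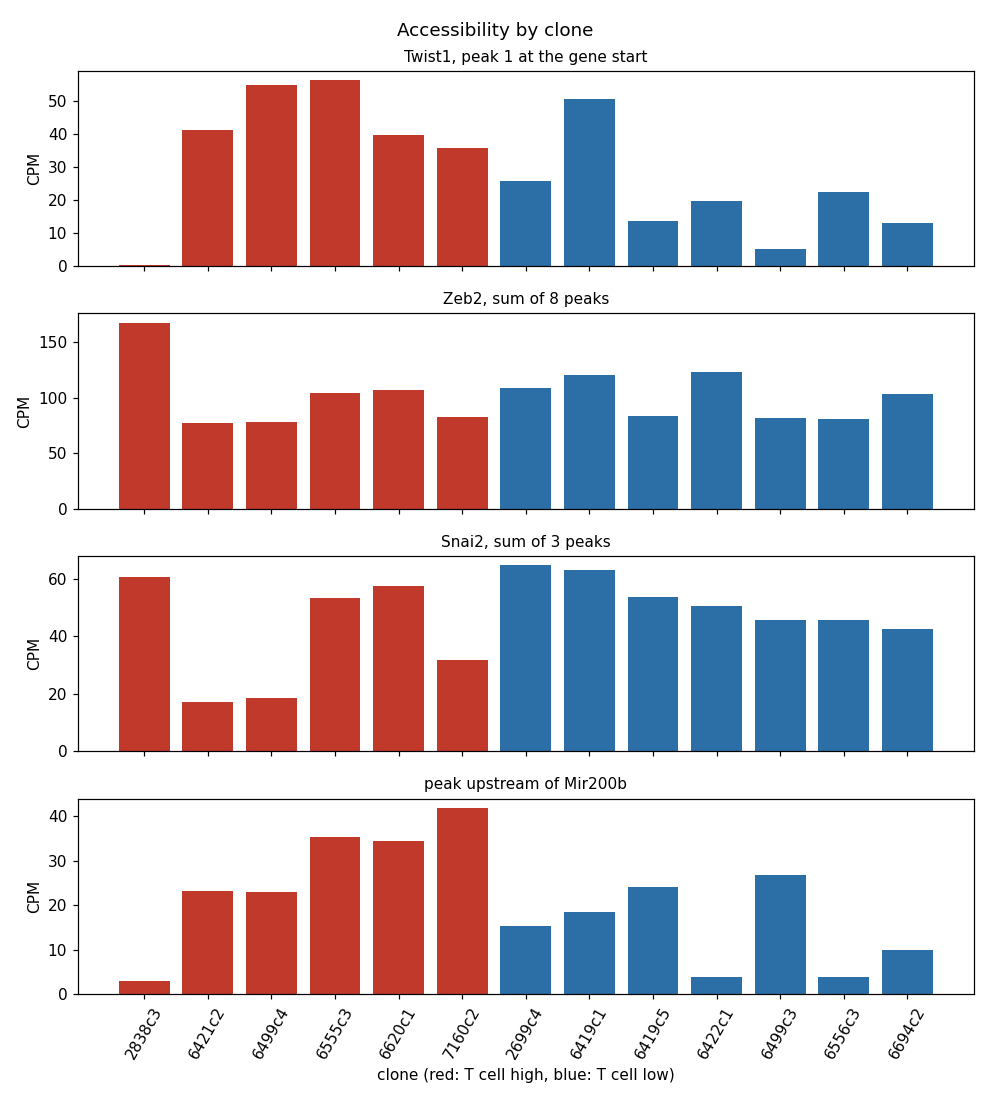
CPM of each clone (T cell high red, T cell low blue) at the Twist1 start peak, the Zeb2 locus sum, the Snai2 locus sum and the peak upstream of Mir200b. Clone 2838c3 is lowest at Twist1 (0.529 CPM) and at the Mir200b peak (2.91 CPM) and highest at Zeb2 (167.8 CPM).

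The Twist2 locus held the only linked peak at which the groups did not overlap. Twist2 encodes the paralog of TWIST1 and lies on the plus strand at chr1:91801461-91848034. The peak at chr1:91822306-91822738, inside the gene record and beside the non-coding record Gm46117, measured 1.32, 1.86 and 3.98 CPM in T cell high clones and 4.95, 6.27 and 8.40 CPM in T cell low clones. Every T cell high clone lay under every T cell low clone. Groups without overlap, in either direction, were found at 0.162% of all tested peaks and at 1 of the 44 linked ones. The means were 2.21 ± 0.95 CPM for T cell high clones (SD, n = 6) and 6.73 ± 1.33 CPM for T cell low clones (SD, n = 7). The peak was weak, with 2 to 24 reads in T cell high and 8 to 58 reads in T cell low clones. On either side of the gap were 6499c4 at 3.98 CPM, with 24 reads, and 6694c2 at 4.95 CPM, with 8 reads. Counting error was not tested here. The log2 fold change was -1.54 (SE 0.41), with an unadjusted p of 0.000946 and an edgeR adjusted p of 0.516, so it did not pass over the whole table. Leaving out single clones gave -1.85 to -1.42, DESeq2 gave an adjusted p of 0.117, and the fit with parental tumour gave -0.51.

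The other Twist2 peaks had smaller fold changes, most of them also below 0, and the difference between peaks was not tested. The peak next to it, chr1:91823221-91823958, had a log2 fold change of -0.38 (SE 0.30), and over the 10 tested peaks 7 were below 0 and 3 above. The start peak, chr1:91801206-91801841, took 3.63% of the locus reads and was weak, with 0.860, 2.57 and 9.97 CPM in T cell high and 0, 5.43 and 8.25 CPM in T cell low clones (log2 fold change -0.40, SE 0.64, edgeR adjusted p = 0.939). The locus summed to 89.8, 105.2 and 122.9 CPM in T cell high clones and to 98.3, 123.0 and 137.3 CPM in T cell low clones (log2 fold change -0.15, SE 0.15, edgeR adjusted p = 0.846). Together with Zeb1 it was the steadiest of the 7 loci, its highest clone being 1.53 times its lowest.

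Prrx1 had no peak within 1 kb of its listed start. The gene, on the minus strand at chr1:163245119-163315145, encodes a homeodomain factor of mesenchymal development, and its nearest peak, chr1:163311595-163312635, lay 1015 bp from that start. It measured 2.59, 6.43 and 17.7 CPM in T cell high and 6.61, 8.80 and 17.7 CPM in T cell low clones (log2 fold change -0.37, SE 0.40, edgeR adjusted p = 0.896). In each group 1 clone stood above the rest, 6421c2 and 6556c3. The 6 peaks summed to 43.5, 49.8 and 62.4 CPM in T cell high clones and to 32.3, 40.7 and 63.5 CPM in T cell low clones, with a log2 fold change of 0.27 (SE 0.20, edgeR adjusted p = 0.795). The smallest p belonged to a peak 23387 bp outside the record, chr1:163338532-163339478, with 3.10, 20.1 and 31.8 CPM in T cell high and 4.71, 12.5 and 21.02 CPM in T cell low clones (log2 fold change 0.70, SE 0.44, edgeR adjusted p = 0.806).

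Clones that came from 1 tumour differed from each other at several members. In the pair from tumour 6499, the T cell high clone 6499c4 had 54.7 CPM and the T cell low clone 6499c3 had 5.36 CPM at the Twist1 start, a ratio of 10.2. At the Snai2 start the pair had 15.4 CPM in 6499c4 and 37.5 CPM in 6499c3, a ratio of 0.411, and at the Zeb2 start 19.1 CPM in 6499c4 and 8.04 CPM in 6499c3, a ratio of 2.37. Regional deviations near Zeb2 were -0.04 log2 units in 6499c4 and -0.39 in 6499c3. The Zeb1, Zeb2 and Twist2 locus sums of the pair had ratios between 0.957 and 1.06. The pair from tumour 6419, both T cell low, also parted at the Twist1 start, with 50.7 CPM in 6419c1 and 13.8 CPM in 6419c5, a ratio of 3.69. With parental tumour as a factor the Twist1 locus had a log2 fold change of 2.92 (SE 0.63, edgeR adjusted p = 0.000492), a contrast that only the 6499 pair informs, 1 clone against 1 clone.

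**Figure D4:**
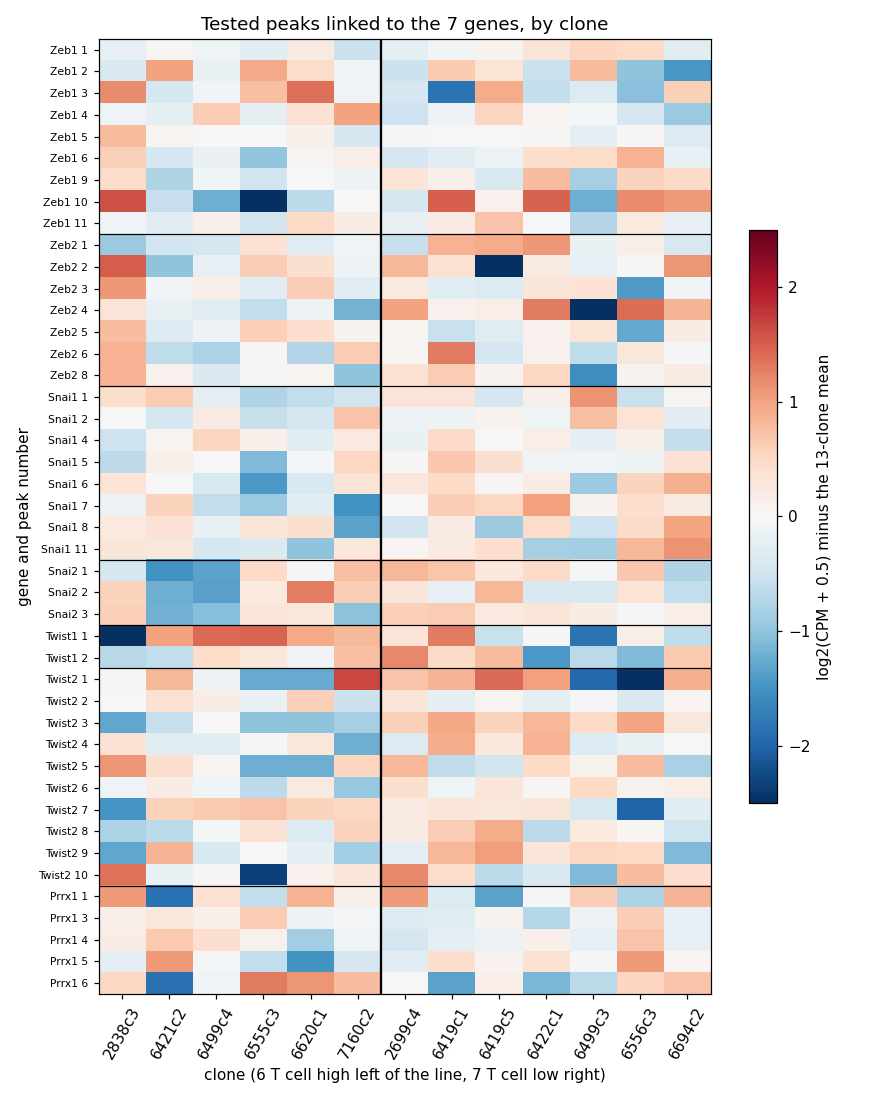
Log2(CPM + 0.5) minus the 13-clone mean for the 44 tested peaks (rows, by gene) in each clone (columns, T cell high left of the line, T cell low right), with colours capped at the ends of the colour bar. The Twist2 3 row is paler or bluer left of the line and redder right of it, and 2838c3 is at the dark blue end at Twist1 1.

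Per kb of peak, the start peaks ordered the members from Snai2 at 30.0 ± 10.9 CPM per kb (SD, n = 13) through Snai1 at 24.9 ± 6.01, Zeb1 at 20.8 ± 4.83, Zeb2 at 17.1 ± 6.48, Twist1 at 14.4 ± 9.20 and Prrx1 at 8.73 ± 4.27 to Twist2 at 6.37 ± 4.94 CPM per kb. Each step between neighbours was smaller than the SD of the paired difference, for instance 5.15 ± 14.3 CPM per kb between Snai2 and Snai1. The order differed between the groups. In T cell high clones the means were 25.5 CPM per kb at Snai1, 24.7 at Snai2, 18.8 at Twist1, 18.6 at Zeb1, 16.3 at Zeb2, 7.41 at Prrx1 and 5.79 at Twist2. In T cell low clones they were 34.6 CPM per kb at Snai2, 24.3 at Snai1, 22.7 at Zeb1, 17.8 at Zeb2, 10.6 at Twist1, 9.86 at Prrx1 and 6.86 at Twist2. Twist1 took the third place in T cell high clones and the fifth in T cell low clones. Over the 12834 peaks at coding gene starts the median was 24.1 and the quartiles 14.3 and 38.6 CPM per kb. Genes with no peak at the start do not enter these quartiles. Over all 13 clones Snai2, Snai1, Zeb1 and Zeb2 lay between the quartiles, Twist1 lay at the lower one, and Prrx1 and Twist2 lay under it. Prrx1 is placed by a peak just outside the 1 kb limit, and Zeb2 by the only one of its listed starts whose window overlapped a peak.

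The loci did not vary as one group across clones. Over 13 clones and 21 pairs of loci, 9 correlations of log2 CPM were above 0 and 12 below, and 0 had a Pearson permutation p under 0.05 after Benjamini-Hochberg adjustment over the 21 pairs, with 2 under 0.05 before it. Zeb2 and Snai2, on different chromosomes, had r = 0.65 (permutation p = 0.0185, adjusted 0.194) and rho = 0.80 (permutation p = 0.00183, adjusted 0.0384). Without 2838c3 and 6421c2, the clones farthest from the median of Zeb2, r was 0.64, and it was 0.82 within the 6 T cell high and 0.50 within the 7 T cell low clones. Twist2 and Prrx1, both on chromosome 1, had r = -0.69 (permutation p = 0.0102, adjusted 0.194) and rho = -0.70 (permutation p = 0.00996, adjusted 0.105), with -0.59 after leaving out 6419c1 and 6419c5, -0.62 within T cell high and -0.66 within T cell low clones. A library has 1 depth for all loci, while regional deviations differed between loci within a clone. In 2699c4, for instance, they were 0.52 log2 units near Snai2 and -0.22 near Snai1. The part of depth or regional dosage in these relations was not tested.

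**Figure D5:**
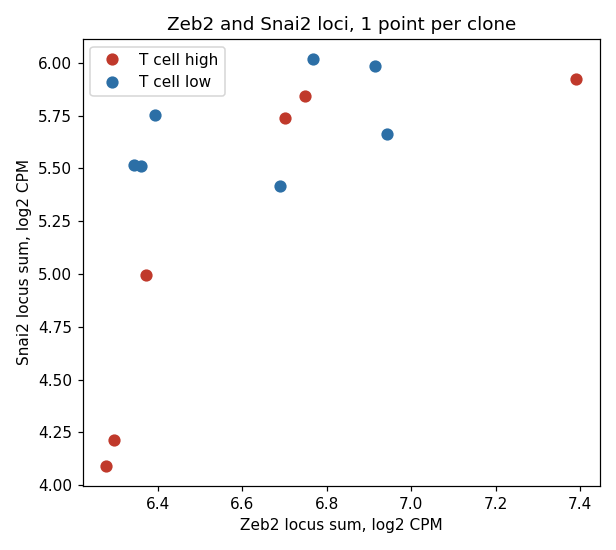
Log2 CPM of the Snai2 locus sum against that of the Zeb2 locus sum, 1 point per clone, T cell high in red (n = 6) and T cell low in blue (n = 7). The 2 lowest T cell high clones at Snai2, 6421c2 and 6499c4, are also the 2 lowest of all at Zeb2 (77.6 and 78.6 CPM), and 2838c3 lies alone at the right.

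Among 12302 genes with a start peak, those on another chromosome whose start peak varied most like each member's over the 13 clones were picked by Pearson r, as a description. For Twist1 they were Ap1s3 (r = 0.90) and Prss57 (r = 0.90). For Zeb1 they were Gcnt1 (r = 0.88) and Plch1 (r = 0.83), and for Zeb2 Gm51582 and Inpp4b (r = 0.86 for both, since they share 1 peak). Snai1 was followed most closely by the X-linked genes Prkx (r = 0.86) and Dlg3 (r = 0.81), Snai2 by Slc38a2 (r = 0.85) and Arid2 (r = 0.79), and Twist2 by Cebpa (r = 0.86) and Slc10a2 (r = 0.83). These coefficients are high by selection, being the highest of many.

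At the miR-200b, miR-200a and miR-429 cluster, a peak lay 3447 bp upstream of the Mir200b hairpin, at chr4:156059197-156060300. It was singled out after its values were seen. In T cell high clones it had 2.91 CPM in 2838c3, 23.3 in 6421c2, 22.9 in 6499c4, 35.3 in 6555c3, 34.6 in 6620c1 and 41.9 in 7160c2. In T cell low clones it had 15.3 CPM in 2699c4, 18.4 in 6419c1, 24.2 in 6419c5, 3.74 in 6422c1, 26.8 in 6499c3, 3.73 in 6556c3 and 9.89 in 6694c2. The clone with the highest Zeb1 and Zeb2 sums, 2838c3, was the lowest here. Clones 6422c1 and 6556c3, also low here, had Zeb1 sums of 188.5 and 199.7 CPM and Zeb2 sums of 123.0 and 81.2 CPM. Clone 6620c1, next to 2838c3 in its Zeb1 sum of 200.4 CPM, had 34.6 CPM here. Regional deviations in 2838c3 were also above 0 near both genes, at 0.25 log2 units near Zeb1 and 0.52 near Zeb2. The log2 fold change of the Mir200b peak was 0.82 (SE 0.47, edgeR adjusted p = 0.778). A second peak 8204 bp upstream of Mir200b had 0.11 (SE 0.48, edgeR adjusted p = 0.980).

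The 3 peaks near the miR-200c and miR-141 hairpins lie at other coding genes, and none was lowest in 2838c3. The peak 5078 bp from Mir141, at Emg1 and Phb2, had 47.8, 60.2 and 69.9 CPM in T cell high and 37.4, 49.1 and 68.6 CPM in T cell low clones, and its highest value was that of 2838c3 (log2 fold change 0.21, SE 0.18, edgeR adjusted p = 0.859). Both others lie at Ptpn6 and did not pass the filter on low counts. The peak 1309 bp upstream of Mir200c had 1.73, 2.74 and 9.03 CPM in T cell high and 1.14, 1.85 and 7.37 CPM in T cell low clones. The peak 5162 bp upstream had 0.860, 1.61 and 4.99 CPM in T cell high and 2.04, 3.48 and 9.57 CPM in T cell low clones, and the groups overlapped at all 3.

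Genes linked to the transition were read at 1 start peak each, from lists written for this comparison. The lists were chosen with earlier results of these data known, so their counts are a description only. Action of the 7 factors on these genes was not tested. Of the 22 epithelial junction and keratin genes, 21 were tested, 16 were above 0 and 5 below, with a median log2 fold change of 0.19, and 0 passed at an adjusted p under 0.05. Over all 11110 tested start peaks, 0.0% passed, 60.4% were below 0 and the median was -0.06. At an unadjusted p under 0.05 there were 4 higher and 1 lower, beside 1.67% and 3.3% of all start peaks, or 4.98% in either direction. Cldn3, a tight-junction claudin gene, averaged 38.2 ± 30.1 CPM across T cell high clones (SD, n = 6) and 6.18 ± 4.40 CPM across T cell low clones (SD, n = 7), with a log2 fold change of 2.65 (SE 0.56, edgeR adjusted p = 0.300). It was 2.90 (edgeR adjusted p = 0.0155) without 2838c3, whose Cldn3 level was 2.65 CPM. That clone was left out after its values were seen, and with all clones Cldn3 did not pass. Epcam, an epithelial adhesion molecule gene, averaged 50.03 ± 30.3 CPM across T cell high clones (SD, n = 6) and 19.9 ± 8.69 CPM across T cell low clones (SD, n = 7), with a log2 fold change of 1.34 (SE 0.39, edgeR adjusted p = 0.581), or 1.56 without 2838c3. Cdh1 itself, the gene for E-cadherin, averaged 24.6 ± 7.34 CPM across T cell high clones (SD, n = 6) and 26.03 ± 7.87 CPM across T cell low clones (SD, n = 7), with a log2 fold change of -0.08 (SE 0.26, edgeR adjusted p = 0.973).

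Of the regulators of the epithelial state, 7 of 12 tested genes were above 0 and 5 below, with a median of 0.02. At an unadjusted p under 0.05, 2 were higher and 0 lower, and 0 passed the adjusted test. Over all tested start peaks 60.4% were below 0 and the median was -0.06. At an unadjusted p under 0.05, 1.67% of them were higher and 3.3% lower. Esrp1, an epithelial splicing regulator, had a log2 fold change of 1.56 (SE 0.63, edgeR adjusted p = 0.681), and Cdx2, an intestinal homeobox gene, 1.19 (SE 0.52, edgeR adjusted p = 0.711). Mesenchymal genes had 5 of 13 above 0 and 8 below, a median of -0.03, 0 higher and 1 lower at an unadjusted p under 0.05, and 0 passing. The lower one was Cdh2, the gene for N-cadherin, with 7.76, 63.9 and 74.3 CPM in T cell high and 81.6, 90.4 and 97.7 CPM in T cell low clones. The groups did not overlap, as at 0.162% of all tested peaks, and the log2 fold change was -0.78 (SE 0.30, edgeR adjusted p = 0.666), or -0.55 without 6421c2. S100a4, a calcium-binding protein gene, had -0.36 (SE 0.20, edgeR adjusted p = 0.779), and the intermediate filament gene Vim -0.20 (SE 0.23, edgeR adjusted p = 0.901).

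Genes of signals that induce the transition, TGF-beta and its relatives among them, were below 0 at 15 of 22 and above 0 at 7, with a median of -0.11 and 0 passing, adjusted or not. Over all tested start peaks 60.4% were below 0, the median was -0.06, and 3.3% were lower at an unadjusted p under 0.05. The ligand gene Bmp2 had a log2 fold change of -0.94 (SE 0.52, edgeR adjusted p = 0.772), and the ligand gene Tgfb2 -0.44 (SE 0.25, edgeR adjusted p = 0.775). Of the other transcription factors linked to the transition 5 of 14 were above 0 and 9 below, with a median of -0.13, 1 lower at an unadjusted p under 0.05 and 0 passing. The forkhead gene Foxq1 had -0.58 (SE 0.22, edgeR adjusted p = 0.668) and the forkhead gene Foxc1 -0.41 (SE 0.26, edgeR adjusted p = 0.808).

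Several members are also active in fibroblasts, and the T cell content of the tumours is the label itself, so markers of other cells are given beside the results. Of 15 fibroblast markers 4 had a start peak, summing to 35.7 to 68.6 CPM in T cell high and 30.5 to 76.0 CPM in T cell low clones, and Pdgfra, Pdgfrb, Dcn and Lum had none. Col5a1 had the highest group means of the 4, with 9.79 to 35.5 CPM in T cell high and 10.4 to 30.9 CPM in T cell low clones. Of 20 leukocyte markers 7 had a start peak, summing to 50.6 to 86.4 CPM in T cell high and 54.4 to 113.8 CPM in T cell low clones, and Cd3e, Cd3g and Cd8a had none. The T cell marker Cd4 did have one, with 5.18 to 14.3 CPM in T cell high and 4.28 to 18.5 CPM in T cell low clones, as did the pan-leukocyte gene Ptprc, with 5.03 to 22.8 CPM in T cell high and 4.95 to 18.7 CPM in T cell low clones. Cd53 had the highest group means of the 7, with 10.9 to 42.8 CPM in T cell high and 22.4 to 58.8 CPM in T cell low clones. Of 12 endothelial markers 2 had a start peak, summing to 15.9 to 69.9 CPM in T cell high and 11.4 to 57.7 CPM in T cell low clones, and Pecam1 and Cdh5 had none. Sox17 had 0 to 50.9 CPM in T cell high and 2.14 to 24.5 CPM in T cell low clones. Plvap had 13.8 to 32.7 CPM in T cell high and 8.71 to 41.8 CPM in T cell low clones. By the smallest p, the fibroblast list was led by Col6a1 at -0.41 and Postn at 0.10, the leukocyte list by Cd53 at -0.55 and Coro1a at -0.52, and the endothelial list by Sox17 at 1.28 and Plvap at 0.00, all as log2 fold changes with 0 passing the adjusted test. The part of such cells in the members' values was not tested.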

How the data were processed

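Sorted tumour cells of 13 clones were profiled by ATAC-seq. The authors deposited 1 table of raw counts of reads per merged peak, made with featureCounts 1.5.3 per the file headers, on mm10 per the submitters' processing notes. The file headers show no option for read pairs, so both ends of a fragment can count. Aligner, peak caller and any transposase shift were not given in the sources used here.

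Every column was matched to a clone by its title. No pair of libraries held identical counts. Peaks were filtered with filterByExpr (59252 of 67945 kept), scaled by TMM and tested with edgeR 4.0.16 (glmQLFit, glmQLFTest, R 4.3.3), two-sided, with Benjamini-Hochberg adjustment at 0.05. Locus sums add all peaks in a gene record of RefSeq GRCm38.p6 or within 50 kb, and were fitted over 18038 genes. A start peak lies within 1 kb of a RefSeq start; Zeb1 and Snai2 had no listed start, and the end of the record that a peak covered was used. Log2 CPM used a prior count of 2, and relations used 100000 permutations. DESeq2 1.42.0, limma-voom (limma 3.58.1), other windows, parental tumour and regional offsets were alternatives. On simulated data with 56105 peaks, the edgeR test called 28% of 2-fold, 78% of 4-fold and 100% of 8-fold changes, with 7 false calls. The changed peaks were drawn only from those above the median level, and each peak had the typical spread for its level. The rates thus do not cover weaker peaks or peaks with a wider spread between clones.

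Named in the text are all members, with the locus sum, the start peak and the peak of smallest p, the 2 genes of smallest p in each list with Cdh1, Vim and Cdh2, and the 2 genes most alike. The members and lists were chosen with earlier results of these data known. Each library is a different clone, and p-values measure the spread between these clones.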

Additional observations from a re-analysis of the deposited data

Results flagged for a closer look

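Of 38 sets of group values at the 7 loci and their named peaks, 6 held a clone far from the rest by Dixon's ratio, the gap to the nearest clone over the range of the group. Chance gives such a clone in about 1 of 20 sets where the sets are independent and their values normally distributed. Here the sets reuse the same clones, start peaks are part of locus sums, and normality of CPM was not tested. The 6 of 38 is thus not compared with that rate. The critical ratio is 0.625 for the 6 T cell high clones and 0.568 for the 7 T cell low clones.

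Clone 2838c3 accounted for 3 of the 6, all among T cell high clones. At the Zeb2 locus it was the highest with 168 CPM, the next clone having 108 CPM (ratio 0.668). At the Twist1 locus it was the lowest with 3.18 CPM, the next having 43.9 CPM (ratio 0.693), and at the Twist1 start peak the lowest with 0.529 CPM, the next having 35.9 CPM (ratio 0.634). The 2 Twist1 values share their reads.

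At the Zeb2 start peak the T cell low clone 6499c3 was the lowest with 8.04 CPM, the next having 26.1 CPM (ratio 0.596). The regional deviation of 6499c3 near Zeb2 was -0.39 log2 units. At the Prrx1 peak nearest to the gene's start, 6421c2 was the highest T cell high clone with 17.7 CPM, the next having 7.96 CPM (ratio 0.644), and 6556c3 the highest T cell low clone, also with 17.7 CPM, the next having 11.1 CPM (ratio 0.593).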

How the results depend on the processing

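No linked peak passed the adjusted test under any alternative run. For the counts that follow, the shares over all peaks or loci under the same alternative are not given. A change from the reported count is thus not a result about the members. The count of linked peaks with an unadjusted p under 0.05, 2 as reported, was 6 with limma-voom, 5 with parental tumour as a factor and 1 to 4 with single clones left out. For the loci the unadjusted count, 0 as reported, was 2 with parental tumour, 1 with regional dosage offsets and 0 to 1 with single clones left out, and the adjusted count was 1 with parental tumour (Twist1). Of 266 combinations of 38 named values with an alternative other than leaving out a clone, 246 kept direction and side of the threshold, 3 newly passed it and 17 turned. Those that passed had parental tumour as a factor, Twist1 at 2.92, Cldn3 at 4.55 and Cdx2 at 4.99, and rest on the 6499 pair.

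The turned log2 fold changes were, with parental tumour, 1.24 at the Zeb2 start, 2.75 at the Twist2 start, -0.0628 at the Zeb2 locus, 0.0907 at the Twist2 locus, 0.31 at Tgfb2, -0.21 at Postn, 0.0724 at Cd53 and -0.23 at the Mir200b peak. With limma-voom they were -0.0247 at the Twist1 start and -0.0185 at Postn. With regional offsets they were -0.10 at the Zeb2 locus and 0.0337 at Cdh1. With clones of 1 tumour summed the Zeb2 locus had -0.0001, and with DESeq2 size factors Plvap had -0.0003. The gene record alone gave 0.0211 at the Zeb1 and 0.0613 at the Snai1 locus, and a window of 10 kb gave 0.0215 at Zeb1. With single clones left out, signs turned within -0.36 to 0.0029 at the Zeb2 start, -0.0635 to 0.16 at the Snai1 start, -0.10 to 0.0202 at the Zeb1 locus, -0.17 to 0.11 at the Zeb2 locus, -0.21 to 0.29 at Postn and -0.22 to 0.30 at Plvap. Apart from the 6499 pair behind the parental values, the cause was not tested.

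No paired analysis was possible because the replicate numbers follow accession order and pair no clones. The fit with parental tumour, given above, compares the groups only within tumour 6499, the 1 tumour that both share. Of the linked peaks 9 had 0 reads in at least 1 clone, and the part of depth in this was not tested. On simulated data most 2-fold changes of single peaks were missed, and only peaks above the median level were changed there.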

Other observations

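Clone 2838c3, picked out after its values were seen, held several extremes among the 13 clones. It was highest at 2 and lowest at 1 of the 7 loci, as 6419c1 also was, and 6555c3 was highest at 1 and lowest at 2. Its Zeb1 locus sum of 208.6 CPM and its Zeb2 locus sum of 167.8 CPM were the highest, and its Twist1 locus sum of 3.18 CPM and its peak upstream of Mir200b at 2.91 CPM the lowest. Its regional deviations were 0.25 log2 units near Zeb1, 0.52 near Zeb2 and -0.10 near Twist1. At the start peaks it had 41.3 CPM at Zeb1, under the 13-clone mean of 49.0 CPM, and 45.5 CPM at Zeb2, the highest. The start peaks of the 21 epithelial junction and keratin genes summed to 304.1 CPM, the lowest of the 13 clones, where the other T cell high clones had 412.8 to 701.1 CPM and the T cell low clones 368.4 to 599.9 CPM. Single start peaks in 2838c3 measured 2.65 CPM at Cldn3, 8.21 CPM at Epcam and 1.85 CPM at Esrp1. At Vim it had 117.8 CPM, within the T cell low range of 48.5 to 138.8 CPM, and at Cdh1 19.1 CPM, within the T cell low range of 14.8 to 35.5 CPM. At Cdh2 it had 65.4 CPM, under the T cell low range of 81.6 to 97.7 CPM.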
